A study of Danio rerio with 8 samples.

Results

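Described here are 4 zebrafish genes of ion transport and its hormonal control in the larval heart: slc4a2a, prlrb, atp1a1a.4 and trpv6. They were picked by name because of their values in the comparison of sorafenib with vehicle in these same samples, so their differences between the groups are given as a description, without a test. The 4 genes are among 20740 named genes and unnamed transcripts that could be tested, and 6 of the 43603 probes of the array belong to them. Total RNA came from the hearts of larvae kept in egg water, whose strain and genotype the labels do not give. The 4 control samples were kept with the vehicle and the 4 sorafenib samples with 1 uM sorafenib, an inhibitor of RAF and vascular growth factor receptor kinases, from 72 to 96 hours after fertilization, and both were taken at 4 days of age. Each sample is 1 Cy3-labelled Agilent array. The labels number the samples of a group as replicates and say neither how many hearts each held nor whether they came from separate clutches, so p-values measure only the spread between these samples, which may be technical.

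Fish in fresh water lose salt and gain water, and they take ions up through ionocytes, specialised cells of the skin and gill. In these cells the Na,K-ATPase drives transport, anion exchangers move chloride against bicarbonate, and the channel Trpv6 lets calcium in. Prolactin is the classical hormone of freshwater adaptation in fish and acts through cytokine-type receptors, while stanniocalcin restrains calcium uptake. The same pumps, exchangers and receptors also occur in other epithelia, in kidney and in muscle. A probe's value below is the log2 of its processed signal minus the log2 of the 75th percentile of that array, called its level, and a level cannot be compared between probes.

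The gene slc4a2a encodes an anion exchanger of the SLC4 family, which swaps chloride for bicarbonate across the membrane. Its single probe, A_15_P162696, read -5.34, -5.46, -6.75 and -5.15 in control replicates 1 to 4 and -2.80, -2.48, -2.23 and -2.53 in sorafenib replicates 1 to 4. All 4 sorafenib values lay above all 4 control values. The control mean was -5.67 ± 0.72 (SD, n = 4) and the sorafenib mean -2.51 ± 0.23 (SD, n = 4). Before scaling, these levels were processed signals of 1.41 to 3.22 units in controls and 12.1 to 26.6 units with sorafenib, where the SD of the array's negative control spots was 0.847 to 1.17 units. The probe was well above background, by the scanner's own flag, on 4 of 4 sorafenib arrays and 0 of 4 control arrays. The control level is therefore only an upper limit. The sorafenib mean was 4.05-fold above an approximate limit for controls. That limit is the lowest level with the flag on each control array, or the probe's own level where that was larger. Probes without the flag can read above it, so this fold is no strict lower bound.

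The gene prlrb encodes one of the zebrafish prolactin receptors. Its single probe, A_15_P147646, read -5.31, -4.81, -5.80 and -5.36 in control replicates 1 to 4. With sorafenib it read -3.23, -3.41, -2.27 and -3.95. The groups did not overlap, and the spread was wider with sorafenib, with means of -5.32 ± 0.40 in controls and -3.22 ± 0.70 with sorafenib (SD, n = 4 each). Processed signals were 2.63 to 3.37 units in controls and 8.96 to 20.1 units with sorafenib. As for slc4a2a, the probe had the flag on 4 sorafenib and 0 control arrays. The sorafenib mean was 2.48-fold above its approximate limit for controls. Both probes entered the table of tested genes through the sorafenib arrays alone, since a probe needed the flag on 4 or more of the 8 arrays to be tested. Of all 20740 genes and transcripts, 10 (0.0482%) were above background on all sorafenib arrays and no control array, and 14 (0.0675%) showed the opposite pattern. Nothing is read from those shares for slc4a2a and prlrb, because the same contrast chose them.

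The gene atp1a1a.4 encodes a catalytic alpha subunit of the Na,K-ATPase, the pump that sets the sodium and potassium gradients of the cell. It was measured by 2 probes, both well above background on every array. The brighter, A_15_P121133, read 2.89, 3.2, 3.09 and 3.50 in control replicates 1 to 4 and 4.05, 3.97, 4.15 and 4.02 in sorafenib replicates 1 to 4. The groups did not overlap, and the sorafenib arrays lay within a narrow band. The mean moved from 3.17 ± 0.25 to 4.05 ± 0.08 (SD, n = 4 each), a difference of +0.88 ± 0.18 (SE) on the log2 scale, or 1.84-fold. The second probe, A_15_P212201, was not among the values that chose the gene, although it reports on the same RNA samples. It read 3.39, 3.06, 3.24 and 3.17 in controls and 3.95, 3.82, 4.34 and 3.50 with sorafenib, again without overlap, a difference of +0.69 ± 0.20 (SE). The file headers and columns used here give no probe sequence, and whether either probe also binds transcripts of the closely related atp1a1a genes was not tested.

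The gene trpv6 encodes the epithelial calcium channel that marks the calcium-absorbing ionocytes of zebrafish skin. Its brighter probe, A_15_P196382, read 3.69, 3.44, 3.74 and 3.23 in control replicates 1 to 4 and 3.91, 4.36, 4.38 and 3.54 in sorafenib replicates 1 to 4. Here the groups overlapped: sorafenib replicates 1, 2 and 3 lay above every control, and replicate 4 lay below controls 1 and 3. The means were 3.53 ± 0.24 and 4.05 ± 0.40 (SD, n = 4 each), a difference of +0.52 ± 0.23 (SE). The dimmer probe, A_15_P101761, read -0.65, -0.49, -0.39 and -0.61 in controls and -0.57, -0.04, -0.48 and -0.41 with sorafenib. Only sorafenib replicate 2 lay above all controls on that probe, and the difference was +0.16 ± 0.17 (SE). The 2 probes of trpv6 therefore differed in size of effect, and both were well above background on all 8 arrays. Counting the probe that stands for each gene, 3 of the 4 genes had sorafenib values entirely above control values, against 2.23% of all genes and transcripts tested, a share from which nothing is read because the same contrast chose the genes.

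**Figure D1:**
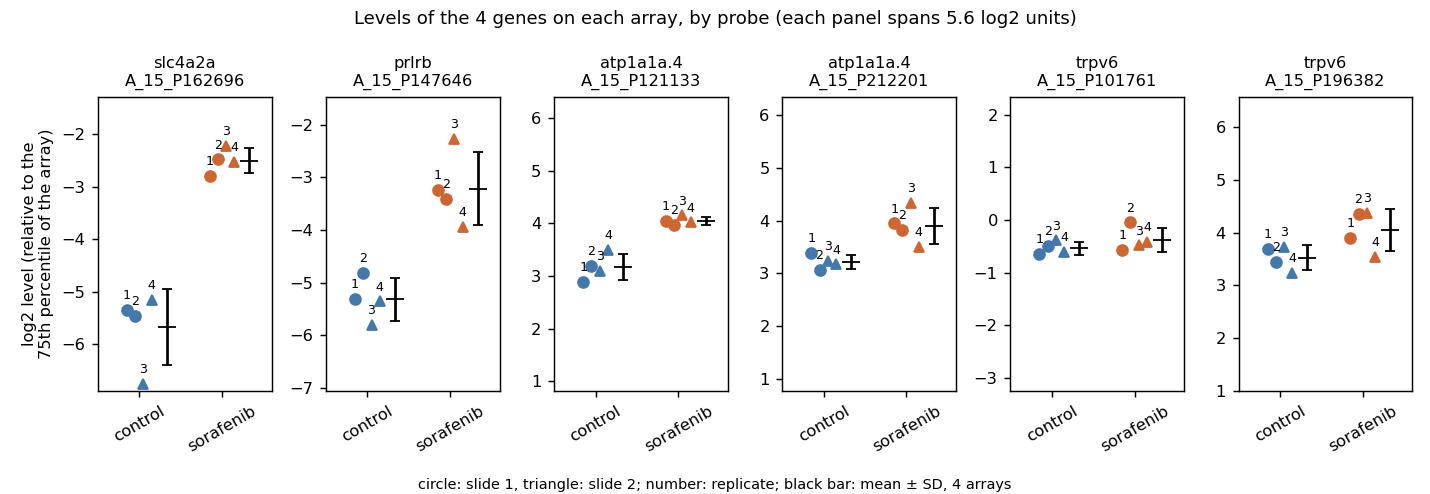
Log2 level of each of the 6 probes (vertical axis, relative to the 75th percentile of the array) on the 4 control and 4 sorafenib arrays, with circles for slide 1, triangles for slide 2, replicate numbers beside the points and black bars for mean ± SD. Sorafenib points lie above all control points for slc4a2a, prlrb and both probes of atp1a1a.4, and overlap with controls for both probes of trpv6.

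The arrays of replicates 1 and 2 of each group were on slide 1 and those of replicates 3 and 4 on slide 2, so each slide held 2 control and 2 sorafenib arrays. For slc4a2a and prlrb no difference is given by slide, since the control side was unmeasured on both. On each slide the sorafenib arrays had the background flag for these genes and the control arrays did not. The brighter probe of atp1a1a.4 gave +0.97 and +0.79, and that of trpv6 gave +0.56 and +0.48. The highest value of all 8 arrays came from sorafenib replicate 3 for slc4a2a, prlrb, both atp1a1a.4 probes and the brighter trpv6 probe. Sorafenib replicates 2 and 3 also stood apart in markers of other tissues, with the summed level of 20 neural marker genes at 7.28 and 7.04, against 8.24 and 8.27 in sorafenib replicates 1 and 4 and 8.15 to 8.54 in controls. The part of these arrays' tissue content in the 4 genes was not tested. Leaving both arrays out cannot test it, since the remaining arrays also differed in marker sums. Without both arrays, a setting chosen after seeing the data, atp1a1a.4 stood at +0.87 and trpv6 at +0.20, the latter less than 1 SD of its replicates. In bulk RNA a change in the share of cells of one type and a change of RNA per cell cannot be told apart.

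**Figure D2:**
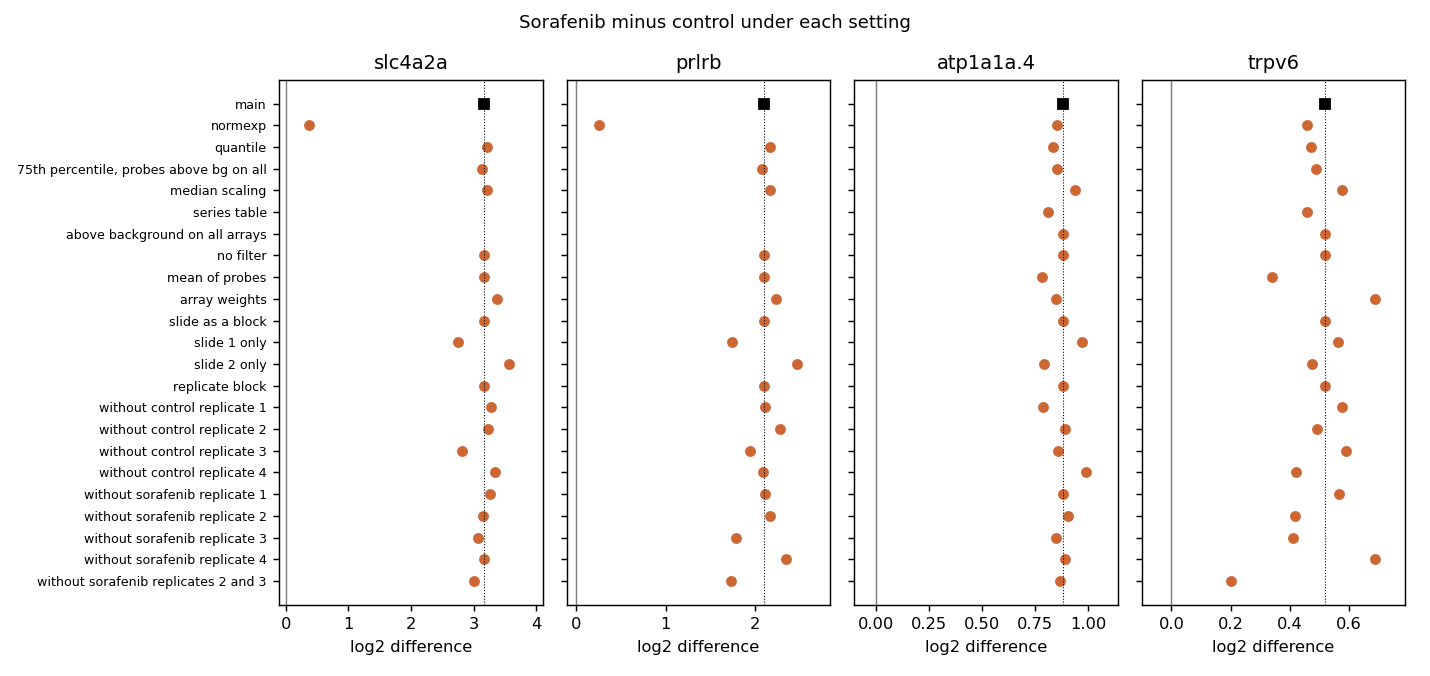
Sorafenib minus control (horizontal axis, log2) of the 4 genes under the main setting (square, dotted line) and each alternative (circles), with a grey line at 0. For slc4a2a and prlrb the control side is below background, so their points are not measured differences, and they shrink to +0.38 and +0.26 after normexp with an offset of 50, while trpv6 falls to +0.20 without sorafenib replicates 2 and 3.

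The wider set consisted of 9 lists with 232 different genes of ion transport and its hormones, of which 111 were measured besides the 4. In the limma fit over all genes, 0 of these 111 passed an adjusted p under 0.05 in either direction, as did 0 (0%) of all 20740 tested, where the smallest adjusted p was 0.0955. At an unadjusted p under 0.05 there were 19 of the 111, 12 higher and 7 lower, or 17.1%. Over all tested that share was 7.54%, with 4.13% higher and 3.41% lower. The lists were drawn up with earlier results of these data known. Without the 6 genes already known from them (stc1, socs3a, socs3b, slc4a1a, ren and edn1), the count was 13 of 105, or 12.4%. Sorafenib and control values did not overlap for 7 of the 111 (6.31%) and, without those 6 genes, for 1 of 105 (0.952%), stat3, against 4.17% of all tested, 2.23% higher and 1.94% lower. For stat3 this held on the brightest probe only, and its dimmer probes overlapped between groups. The median difference of the 111 was +0.04, against -0.02 over all tested, and 60 were positive, where 48% of all tested were. The count at an unadjusted p under 0.05 depended on single arrays: it was 12 without control replicate 3, where 4.44% of all tested had such a p. It was 11 without sorafenib replicate 3, beside 4.27% of all tested, and 35 without sorafenib replicate 4, beside 18.1%. Without sorafenib replicates 2 and 3 it was 8, or 7.21%, beside 3.45% of all tested.

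**Figure D3:**
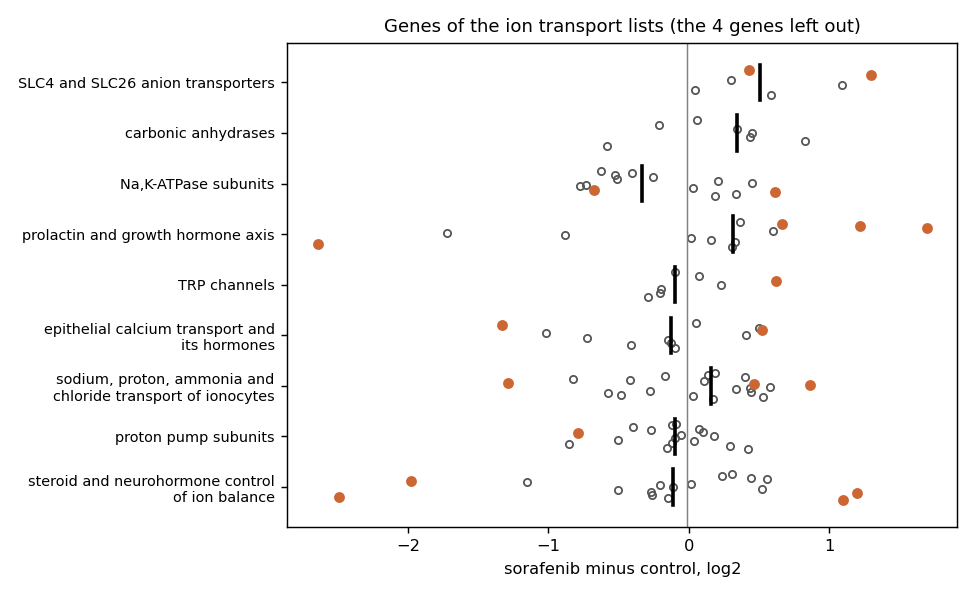
Sorafenib minus control (horizontal axis, log2) of each measured gene of the 9 ion transport lists, without the 4 genes. Filled points have an unadjusted p under 0.05 in limma, open points do not, black bars are list medians, and the grey line is the median over all genes tested. Genes lie on both sides of 0 in every list but that of the SLC4 and SLC26 transporters, where all 6 are positive on their brightest probe.

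Among Na,K-ATPase subunits other than atp1a1a.4, 14 of 20 listed genes were measured, 6 with positive and 8 with negative differences and a median of -0.33. The annotation places atp1a1a.4 beside its paralogs atp1a1a.1, atp1a1a.2 and atp1a1a.3 in one cluster. In zebrafish skin atp1a1a.1 marks calcium-absorbing and atp1a1a.2 sodium-chloride-absorbing ionocytes. Both overlapped between groups, atp1a1a.1 at +0.19 ± 0.23 and atp1a1a.2 at +0.34 ± 0.21 (SE), neither with an unadjusted p under 0.05. The third, atp1a1a.3, read -0.02, 0.67, 1.11 and 0.97 in controls and 1.09, 1.18, 1.49 and 1.43 with sorafenib. Its difference was +0.61 ± 0.26 (SE), with a limma adjusted p of 0.653, and 1 control value lay within the sorafenib range. It was the 1 member of the list that was higher at an unadjusted p under 0.05, and atp1a1b was the 1 that was lower. Over all tested those shares were 4.13% and 3.41%. The 2 probes of atp1a1a.5, the paralog that marks acid-secreting ionocytes, lacked the flag on all 8 arrays. The alpha subunit gene atp1a1b stood at -0.67 ± 0.30 (SE, limma adjusted p = 0.655). Of the 6 measured beta subunits, which carry the pump to the membrane, atp1b1a stood at +0.45 ± 0.21 (SE) and atp1b1b at +0.21, and the other 4 were negative, between -0.53 and -0.26. The neural marker list lay in the same direction as atp1a1b, with 20 of 20 measured members negative and a median of -0.70, and its part in that value was not tested. Whether atp1a1a.4 differed more than its paralogs was not tested.

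**Figure D4:**
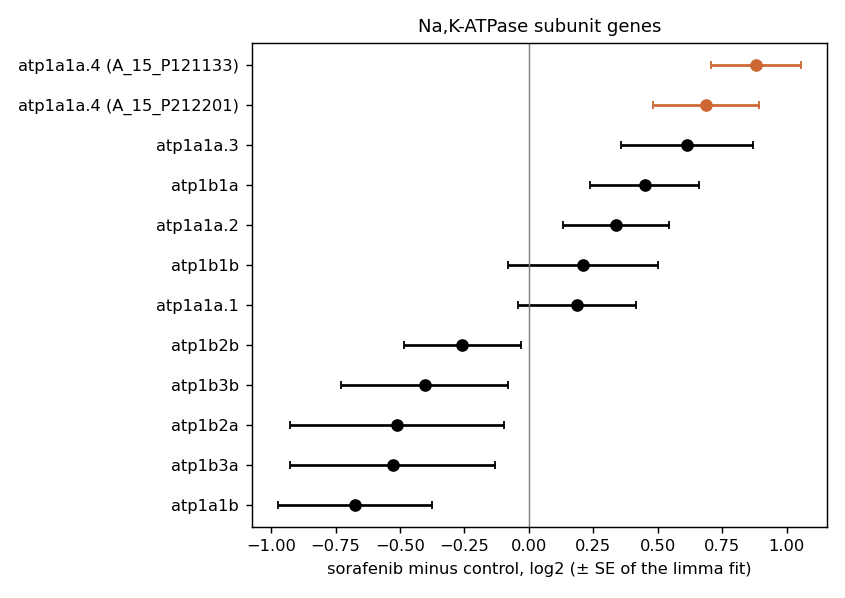
Sorafenib minus control (horizontal axis, log2, bars ± SE of the limma fit, 4 arrays per group) of the Na,K-ATPase subunit genes the text describes, with both atp1a1a.4 probes in orange. The atp1a1a paralogs lie between +0.19 and +0.88, whereas atp1a1b lies at -0.67.

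Besides slc4a2a, 6 of 24 listed SLC4 and SLC26 anion transporters were measured, and all 6 differences were positive, with a median of +0.51. Of these 2 had an unadjusted p under 0.05, where 7.54% of all tested had one. One was slc4a1a, the band 3 exchanger of red blood cells, at +1.29 ± 0.38 (SE, limma adjusted p = 0.538), with control levels of 1.62, 0.19, 1.27 and 1.94 and sorafenib levels of 2.47, 1.99, 3.13 and 2.61. Its groups did not overlap on the brightest probe, but its 3 probes ranged from +0.35 to +1.29. It was listed with its result already known. The other, slc4a4a, a sodium bicarbonate cotransporter gene, stood at +0.43 ± 0.19 (SE, limma adjusted p = 0.655), and its groups overlapped. The remaining 4 were SLC26 genes and ranged from +0.05 for slc26a11 to +1.09 for slc26a3.2. The dimmer probes of slc26a5 and slc26a11 stood at -0.30 and -0.02, so the shared direction holds for the brightest probe of each gene only. Carbonic anhydrases supply the bicarbonate these exchangers carry. Of 18 listed, 7 were measured, 5 positive and 2 negative, with 0 at an unadjusted p under 0.05. The widest positive difference among them was that of ca15a, a marker of acid-secreting ionocytes, at +0.83 ± 0.38 (SE). The gene slc4a2b, a paralog of slc4a2a, had no probe matched by name and was not analysed here.

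In the prolactin and growth hormone axis 12 of 23 listed genes were measured, 9 positive and 3 negative, with a median of +0.32. At an unadjusted p under 0.05, where 4.13% of all tested were higher and 3.41% lower, there were 3 higher and 1 lower. The first of these was socs3a, a feedback inhibitor of cytokine receptors, at 2.74, 3.22, 2.57 and 2.51 in controls and 4.69, 4.35, 5.18 and 3.61 with sorafenib. Its groups did not overlap, and the difference was +1.70 ± 0.33 (SE, limma adjusted p = 0.307). The paralog socs3b stood at +1.22 (limma adjusted p = 0.429) and the transcription factor stat3 at +0.67 (limma adjusted p = 0.559). Both socs3a and socs3b were listed with their results already known. The lower gene was gh1, the pituitary growth hormone, at -2.64 ± 1.11 (SE, limma adjusted p = 0.653). It had the background flag on 4 control and 2 sorafenib arrays, and its groups overlapped. The ligand gene prl, which is made in the pituitary, was well above background on 3 control and 2 sorafenib arrays, and its difference of -0.88 ± 0.93 (SE) had no unadjusted p under 0.05. Without sorafenib replicates 2 and 3 that of prl was +0.69. The kinase gene jak2a and the receptor genes ghra and ghrb stood at +0.02, +0.33 and +0.16. No probe was matched by name to prlra, and it was not analysed here.

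Around calcium uptake, the list of epithelial calcium transport and its hormones had 11 of 35 genes measured besides trpv6, 4 positive and 7 negative, with a median of -0.12. The hormone gene stc1, listed with its result already known, was the lower of the 2 with an unadjusted p under 0.05, beside 7.54% of all tested. Its control levels of 0.12 to 0.16 lay above its sorafenib levels of -0.47, -1.79, -1.70 and -0.84, a difference of -1.33 ± 0.30 (SE, limma adjusted p = 0.391). The higher was s100a10b, an annexin-binding protein gene, at +0.52 ± 0.22 (SE, limma adjusted p = 0.655), with overlapping groups. The calcium pump gene atp2b1a, which acts with trpv6 in calcium-absorbing ionocytes, stood at -0.10 ± 0.18 (SE). The growth factor binding protein gene igfbp5a, another marker of those ionocytes, stood at +0.08 ± 0.17 (SE). Of the other TRP channels 7 were measured, 3 positive and 4 negative, with a median of -0.10. Only trpm1b among them had an unadjusted p under 0.05, where 7.54% of all tested had one. It stood at +0.62 ± 0.27 (SE, limma adjusted p = 0.655), and its groups overlapped.

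For sodium, proton, ammonia, potassium and chloride transport 20 of 38 listed genes were measured, 13 positive and 7 negative, with a median of +0.15. The potassium channel genes kcnj1a.5 and kcnj1a.6 stood at +0.86 ± 0.28 and +0.46 ± 0.21 (SE), with limma adjusted p of 0.571 and 0.655. The related kcnj1b stood at -1.29 ± 0.48 (SE, limma adjusted p = 0.632) with the background flag on 4 control arrays but on 1 sorafenib array, and its difference was -0.0051 after normexp. These 3 were the members with an unadjusted p under 0.05, beside 7.54% of all tested, and all had overlapping groups. Among 17 proton pump subunits, the pump that acidifies vesicles and acid-secreting ionocytes, the median was -0.10. Of them 1 (5.88%) had an unadjusted p under 0.05, below the 7.54% of all tested. It was atp6v1b2, at -0.79 ± 0.34 (SE, limma adjusted p = 0.655). Among 17 measured genes of steroid and neurohormone control, 2 were higher and 2 lower at an unadjusted p under 0.05. Over all tested those shares were 4.13% and 3.41%. Of these, ren and edn1 were listed with their results already known. The renin gene ren had the flag on 4 control and 0 sorafenib arrays, so it entered the test through the control arrays alone. Its sorafenib side was unmeasured, and its limma adjusted p of 0.272 is not read. It is still counted among the 2 lower genes here and the 7 lower of the 111. The control mean of ren was 1.89-fold above the approximate limit for the sorafenib arrays. The vasopressin gene avp stood at -2.49 ± 0.78 (SE, limma adjusted p = 0.559), well above background on 4 control and 2 sorafenib arrays. The endothelin gene edn1 stood at +1.20 ± 0.24 (SE, limma adjusted p = 0.307) and the angiotensinogen gene agt at +1.1 ± 0.43 (SE, limma adjusted p = 0.649).

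Dissected hearts of this stage could carry skin, gill or kidney tissue, where pumps, exchangers and receptors of these kinds also occur. Marker lists of those cells were therefore measured on the same arrays. Heart muscle markers had 17 of 19 genes with a probe measured, and the defining endothelial genes cdh5 and kdrl lacked the background flag on all 8 arrays. The heart muscle sum was 8.74 to 9.19 in controls and 8.80 to 9.61 with sorafenib. Of its 17 measured genes 16 were positive (median +0.33), and 1 was higher at an unadjusted p under 0.05, against 4.13% of all tested. The endothelial sum over the 14 genes with a probe was 5.18 to 5.46 in controls and 4.83 to 5.13 with sorafenib, without overlap. Of the 11 measured, 8 were lower at an unadjusted p under 0.05, against 3.41% of all tested. That list was drawn up with earlier results of these data known, so nothing is read from its count or sum. Of the 4 ionocyte lists, that of calcium-absorbing cells had 5 of 5 genes with a probe measured, and its summed level was 6.46 to 7.11 in controls and 6.54 to 7.08 with sorafenib. That sum mostly follows atp1a1a.1, whose mean level was 6.33 in controls and 6.51 with sorafenib. Since such pumps also occur in other epithelia and in muscle, the sum is no measure of ionocytes alone. The acid-secreting list, 4 of 5 measured with atp1a1a.5 at background, summed to 6.86 to 7.20 and 6.86 to 7.43. The list of chloride-absorbing and potassium-secreting cells, 5 of 5 measured, summed to 3.87 to 4.54 and 4.31 to 4.75, and its 5 genes were all positive, between +0.34 and +0.58. The ionocyte specification list, 8 of 8 measured, summed to 4.63 to 4.93 and 4.54 to 5.12, with its member foxi3b at +0.30 ± 0.19 and gcm2 at +0.48 ± 0.25 (SE). All 4 sums, which the brightest genes carry, overlapped between groups. The mean level per gene was also taken, centred on the mean over arrays so that each gene weighs the same. It overlapped for 3 of the lists. For the chloride-absorbing and potassium-secreting list it did not, at -0.31 to -0.08 in controls and 0.02 to 0.38 with sorafenib. Singly, 0 of its 5 genes were without overlap, beside 4.17% of all tested, and 0 had an unadjusted p under 0.05, beside 7.54%. Its dim member slc12a10.2 had the flag on only 2 control arrays. No such share was computed for list means, so nothing is read from this one. Of the 19 different genes measured in the 4 ionocyte lists 14 were positive, 0 higher and 1 lower at an unadjusted p under 0.05, beside 4.13% and 3.41% of all tested. The lower was dlc, a Notch ligand gene, at -0.71 (limma adjusted p = 0.472), singled out after its value was seen. Skin and pharyngeal epithelium summed to 10.29 to 10.72 in controls and 10.13 to 10.88 with sorafenib over 21 measured genes. Of these 18 were positive and 2 higher at an unadjusted p under 0.05, where 4.13% of all tested were. Pronephros, the larval kidney, summed to 5.0 to 5.67 and 5.41 to 5.70 over the 19 genes with a probe. Of the 18 measured, 13 were positive and 3 higher at an unadjusted p under 0.05, where 4.13% of all tested were. Liver and plasma protein genes summed to 8.16 to 9.47 and 8.33 to 9.76 over 16. All of them were positive and 7 higher at an unadjusted p under 0.05, beside the same 4.13% of all tested. Yolk and pancreas genes, 14 of 14 positive with a median of +1.54, summed to 6.07 to 8.01 and 6.80 to 8.85. Gut genes were positive for 5 of 6 (median +0.47) and red blood cell genes for 9 of 11 (median +0.29), where control replicate 2 was low in the red cell sum, at 7.91. Sorafenib replicate 3, highest for the 4 genes, was also the highest of the 8 arrays in the liver, gut, and yolk and pancreas sums. The same held for the heart muscle, pronephros, red blood cell and acid-secreting ionocyte sums, but not for the skin sum or the other ionocyte sums. The part of these tissues in the values of the 4 genes was not tested.

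**Figure D5:**
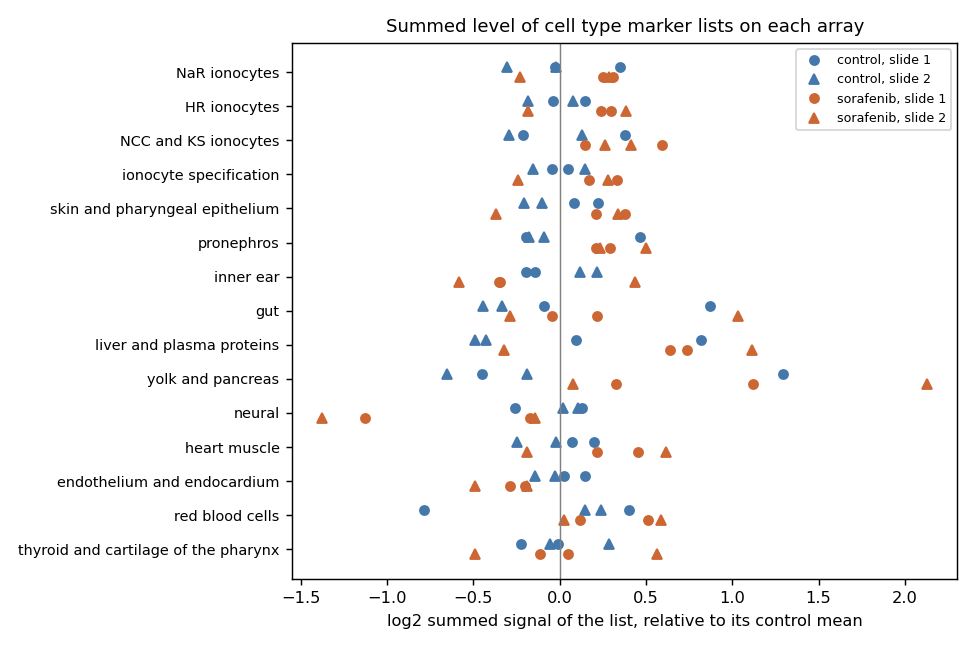
Log2 summed signal of each cell type marker list on each array (horizontal axis, relative to the mean of the list in controls), blue for control and orange for sorafenib, circles for slide 1 and triangles for slide 2. The 4 ionocyte sums overlap between groups (the mean per gene of the chloride-absorbing and potassium-secreting list does not), whereas the neural list is lowest in 2 sorafenib arrays, at 7.28 and 7.04 before centring.

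By position in the annotation, the measured genes nearest to slc4a2a were ubtfl (-0.21) and faim2a (-0.26), those nearest to prlrb were mfsd10 (-0.40) and coq2 (+0.21), and those nearest to trpv6 were zgc:92606 (-0.10) and leng8 (+0.34), all with overlapping groups. Likeness of pattern was measured as Pearson's r of level over the 8 arrays, across 8896 other named genes. It is a description, since points share the same groups and slides. The contrast that chose the 4 genes enters each r, so a gene that differs between the groups can rank high by that alone. For slc4a2a and prlrb the 4 control values are also below background, and nothing is read from their r. For slc4a2a the highest were zmat1 (0.99), csrp1a (0.96) and sars2 (0.96). For prlrb they were socs3a (0.98), sfr1 (0.98) and cdc42l2 (0.98). The nearest to atp1a1a.4 were ctsll (0.98), eif4a2 (0.98) and actc2 (0.97), and to trpv6 tnfrsf1a (0.98), gatd3 (0.97) and lactb2 (0.97). Taking out the group means first, so that the contrast no longer enters, ctsll kept an r of 0.92 with atp1a1a.4 and lactb2 one of 0.99 with trpv6, and both stayed among the nearest 3. For slc4a2a and prlrb this measure is not given, because deviations among their control arrays are those of unmeasured signal.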

How the data were processed

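Per the file headers, the authors quantified each one-colour array in Agilent's scanning software, Feature Extraction, at release 10.1.1.1. The submitters' processing notes name release 8.0 of it. The deposited scanner files hold linear intensity, already background-subtracted in the processed signal, with 0 or 1 flags counted here as "other" values, and no scaling between arrays. The log2 table deposited by the authors has 21383 probes, column medians of 7.20 to 7.22 and a lowest value of 5.66. Every column correlated most with the array of its own sample (r 0.975 to 0.985), and its centring and filter are unknown here. It holds no row for the slc4a2a and prlrb probes and served as an alternative.

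Control spots and 5 to 15 outlier spots per array were left out, and 0 spots were saturated. Between 55.0% and 59.5% of spots per array were well above background. The number of arrays limits precision. Processed signals were put on the log2 scale minus the 75th percentile of the array. A probe entered if well above background on at least 4 of 8 arrays, and the brightest stood for a gene. Of 43603 probes 15163 were named through RefSeq accessions (assembly GRCz12tu, names and order only; the files use danRer5). Groups were compared with limma 3.58.1 in R 4.3.3 (lmFit, eBayes, no covariates), two-sided, with Benjamini-Hochberg adjustment. On simulated data for this comparison, 200 of 20740 genes were changed and the noise was independent between genes. The fit recovered 38% of genes changed 2-fold and 78% of those changed 4-fold, with 3 false among 105 calls. Deviations that genes share on an array, which the real arrays have, were not simulated. These figures are therefore not the power or error rate of the real comparison.

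The 4 genes and the 24 gene lists were chosen with earlier results of these data known. Named are the 4 genes, SLC4 and Na,K-ATPase subunit genes, fixed ionocyte genes, the 2 genes with the smallest p each way in each list among those at an unadjusted p under 0.05, and the 3 genes most alike in pattern. Others (stat3, prl, jak2a, ghra, ghrb, the SLC26 genes, ca15a, genes at background and chromosomal neighbours) were added for role, value or position. The planned normexp step used median signals, as the files have no mean signal column, and left out spots with a non-uniform local background. Some measured members of the lists are counted but not reported here by name.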

Additional observations from a re-analysis of the deposited data

Results flagged for a closer look

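In 68 groups of 4 arrays (each of the 6 probes of the 4 genes and 28 named genes, in each treatment), 3 held an array far from the other 3, and chance flags about 1 in 20 groups. None was a probe of the 4 genes. In the sorafenib group atp1a1a.1 read 6.06 on replicate 4, against 6.66 to 6.67 on the others. In controls atp1a1b read 3.05 on replicate 2, against 3.34 to 3.37. In the sorafenib group ren read -6.48 on replicate 3, against -5.26 to -5.08, all below the level that counts as well above background.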

How the results depend on the processing

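Under each of 22 alternative settings atp1a1a.4 and trpv6 were higher with sorafenib. The settings reuse the same arrays and the genes were chosen from this contrast, so the shared direction is no independent support. For slc4a2a and prlrb, which have no value in the authors' table or among probes above background on all arrays, the other settings are not read, as their control side is below background. After normexp slc4a2a was +0.38 and prlrb +0.26, where the offset of 50 exceeds their whole signal. Other dim genes also shrank after normexp, ren to -0.12, kcnj1b to -0.0051, gh1 to -0.64, avp to -0.56, stc1 to -0.67, prl to -0.12, kcnj1a.6 to +0.11 and trpm1b to +0.24. With single arrays left out atp1a1a.4 ranged from +0.79 to +0.99 and trpv6 from +0.41 to +0.69. The mean of its probes gave trpv6 +0.34.

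Genes past an adjusted p of 0.05 over all tested numbered 0 in the main fit, 1 after normexp, 2 after quantile normalization, 1 with median scaling, 8 in the authors' table, 2 with the mean of probes, 31 with array weights and 0 to 1 with single arrays left out. Of the 111 other ion transport genes, 2 passed with array weights (socs3a and edn1) and 0 otherwise. Their count at an unadjusted p under 0.05, 19 in the main fit, was 46 with array weights (22.8% of all tested), 8 on slide 1, 12 on slide 2, 8 without sorafenib replicates 2 and 3, and 11 to 35 with single arrays left out. Over all tested the count also moved, from 596 to 4725 across the settings, so nothing about these genes is read from the slide counts. The cause was not tested. Same-numbered arrays of the 2 groups deviated together with r of 0.27, 0.43, 0.04 and 0.70. The main fit did not take the numbers as pairs, and whether they were pairs is not known here. Of the 8 arrays 7 were most alike to the one with their own number. With a replicate block 29 of the 111 and 2793 of all tested had an unadjusted p under 0.05, and 0 passed after adjustment. In the main fit those at an unadjusted p under 0.05 numbered 19 and 1563. Directions reversed for prl on slide 1 (+0.0488) and without sorafenib replicates 2 and 3 (+0.69), and for atp2b1a without those 2 arrays (+0.0389). The signals of slc4a2a and prlrb in controls lie at the limit of the arrays.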

Other observations

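Besides slc4a2a and prlrb, 2 named genes were well above background on all sorafenib arrays and no control array, prph2a and slc18b1. With sorafenib prph2a, a photoreceptor disc protein gene, lay 2.88-fold above the approximate limit for controls. For slc18b1, a vesicular polyamine transporter gene, that figure was 2.09-fold. The opposite pattern held for 2 named genes, ren and ythdf2, a reader of methylated RNA. In controls ythdf2 lay 1.28-fold above the approximate limit for the sorafenib arrays.

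Some pituitary hormone genes were detected in these heart samples. Others were not, as the somatolactin gene smtla lacked the background flag on every array, and prl had it on 3 control and 2 sorafenib arrays. The other somatolactin gene, smtlb, read -0.0042, 0.84, 2.41 and 1.49 in controls and 0.87, -2.32, -2.17 and 1.46 in sorafenib replicates 1 to 4. The proopiomelanocortin gene pomca read 0.22 to 2.03 in controls and 0.21, -1.04, -1.14 and 1.12 with sorafenib. Both were lowest on sorafenib replicates 2 and 3, the arrays lowest in neural markers, and neither had an unadjusted p under 0.05. The genes named here were picked after their values were seen.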
